A study of Mus musculus with 4 samples.

Results

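Immune checkpoint and costimulation genes encode the receptors and ligands that restrain or sustain T cells after antigen recognition. They were examined as a set of 10 genes chosen by name, namely the inhibitory receptors Pdcd1, Ctla4, Lag3, Tigit, Btla and Havcr2 and the ligands Cd274, Pdcd1lg2, Cd80 and Cd86. All 10 were found by exact symbol among the 17335 genes of the RNA-seq table. Each passed the filter of 0.1 FPKM in at least 1 library, as did 15839 genes in all. FPKM is the number of sequenced fragments per kilobase of transcript, scaled to the sequencing depth of the library.

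The libraries came from gonadal white adipose tissue (gWAT) of female mice that had been fed a high-fat diet (18 weeks). AD1KO mice carried floxed Dnmt1 alleles and an adiponectin-Cre transgene, which is active in adipocytes and removes an early pair of Dnmt1 exons there. The fl/fl mice were littermates with the same floxed alleles and served as controls, and the age of the mice is not given in the sources used here. Each group was a single library made from the combined RNA of 4 animals, so no spread between animals could be measured and no test between the groups was possible.

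T cells receive a first signal through the T cell receptor and a second one through CD28, which binds CD80 and CD86 on antigen-presenting cells. CTLA-4 binds the same ligands and holds CD28 back, while PD-1, LAG-3, TIGIT, BTLA and TIM-3 deliver further inhibitory signals. Such genes are best known from T cells, NK cells, macrophages, dendritic cells and B cells. Whether adipocytes also expressed them here was not measured. In bulk tissue, fewer cells of a type and less RNA per cell cannot be told apart.

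Reads per gene were estimated from the steps in the FPKM values, which gave a depth of 17650000 for the fl/fl library and 17480000 for the AD1KO library. Every 95% interval below is an exact interval on these reads and covers counting error only. Dnmt1, the targeted gene, was at 6.99 FPKM in fl/fl and 3.33 FPKM in AD1KO, a log2 ratio of -1.07 (interval -1.27 to -0.87), so the lower level lay in the library labelled AD1KO. This value covers the whole transcript and all cells of the tissue, not the floxed exons alone. Summed reads of macrophage, pan-leukocyte and T cell markers had log2 ratios of -1.15, -1.25 and -1.56. The part of leukocytes in the Dnmt1 value was not tested. The adipocyte markers, among them Adipoq, were higher in AD1KO, with 7 of 7 past a log2 ratio of 0.5. All 4 markers of reproductive tract epithelium were lower in AD1KO, from 434 summed reads in fl/fl to 20 in AD1KO. The part of this difference in the results below was not tested.

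All 10 checkpoint and costimulation genes were lower in AD1KO gWAT than in fl/fl gWAT. Their log2 ratios, taken as AD1KO over fl/fl after 0.01 FPKM was added to both, ran from -3.46 for Tigit to -0.93 for Cd274, with a median of -1.41. The median of all tested genes was -0.04. A log2 ratio of -0.5 or less, the threshold used by the authors, was met by 10 of 10 genes, against 19.1% of all tested genes. A ratio of 0.5 or more was met by 0 of the 10, against 14.3% of tested genes. The ratio was -1 or less for 9 of the 10, against 8.95%. For 10 genes the upper end of the counting interval was below 0, against 29.0% of tested genes, and for 10 it was below -0.5, against 8.32%.

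**Figure D1:**
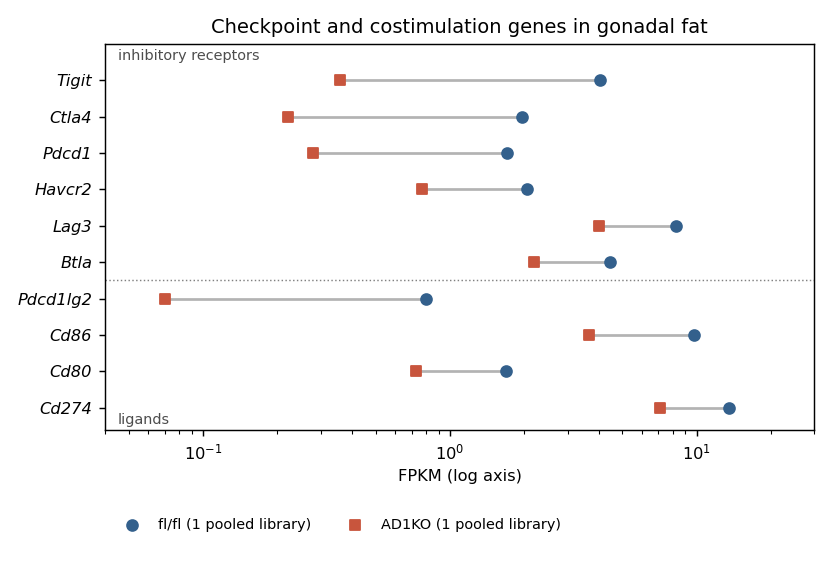
Level of each checkpoint and costimulation gene in FPKM (horizontal log axis) in the fl/fl library (circles) and the AD1KO library (squares), 1 pooled library per group, with receptors above the dotted line and ligands below it. Every square lies left of its circle, from 8.75% of the fl/fl level for Pdcd1lg2 to 52.5% for Cd274.

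The levels were low to moderate for this tissue. The median tested gene was at 5.58 FPKM in fl/fl, a level that only Cd274, Cd86 and Lag3 exceeded. In fl/fl the order ran from Cd274, Cd86 and Lag3 through Btla and Tigit to Havcr2, Ctla4, Pdcd1, Cd80 and last Pdcd1lg2. Of the 9 neighbouring pairs in that order, 5 did not differ beyond counting error, including each step from Havcr2 to Cd80. In AD1KO the first 4 were Cd274, Lag3, Cd86 and Btla, with Pdcd1lg2 again last. Tigit stood at place 5 in fl/fl and at place 7 in AD1KO, where none of the steps from Havcr2 down to Pdcd1lg2 exceeded counting error.

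Among the inhibitory receptors, Tigit (gene 100043314, chromosome 16 of mm9, 43648974 to 43664297, minus strand) had the lowest ratio. It encodes a receptor on T and NK cells that binds the poliovirus receptor and competes there with the activating receptor CD226. The fl/fl library held 4.05 FPKM of Tigit (about 101 reads) and the AD1KO library 0.36 FPKM (about 9 reads). The AD1KO level was 8.89% of that in fl/fl, with a log2 ratio of -3.46 (interval -4.64 to -2.49). Only 1.43% of tested genes had a lower ratio.

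Ctla4 (gene 12477, chromosome 1, 60943844 to 60972676, plus strand) encodes the inhibitory counterpart of CD28 and is most abundant on regulatory T cells. Its level was 1.96 FPKM in fl/fl and 0.22 FPKM in AD1KO, from about 63 and 7 reads. The log2 ratio was -3.10 (interval -4.53 to -2.03).

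Pdcd1 (gene 18566, chromosome 1, 95934884 to 95949130, minus strand) encodes PD-1, which marks activated and chronically stimulated T cells. Its level was 1.70 FPKM with about 56 reads in fl/fl against 0.28 FPKM with about 9 reads in AD1KO, a log2 ratio of -2.56 (interval -3.82 to -1.60). The AD1KO values of Tigit, Ctla4 and Pdcd1 thus each rested on fewer than 10 reads, and their intervals overlapped.

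Havcr2, Lag3 and Btla kept more of their fl/fl level. Havcr2 (gene 171285, chromosome 11, 46268437 to 46294757, plus strand) encodes TIM-3, which is found on myeloid cells as well as on T cells. Its level was 2.05 FPKM in fl/fl (about 94 reads) and 0.77 FPKM in AD1KO (about 35 reads) (log2 ratio -1.40, interval -2.01 to -0.84).

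Lag3 (gene 16768, chromosome 6, 124854379 to 124861723, minus strand) encodes a receptor for MHC class II that is related to CD4. Lag3 had 8.25 FPKM in the fl/fl library and 4 FPKM in the AD1KO library, on about 232 and 111 reads, a log2 ratio of -1.04 (interval -1.39 to -0.72). Btla (gene 208154, chromosome 16, 45224428 to 45253008, plus strand) encodes a receptor for the TNF receptor family protein HVEM and is found on B cells and dendritic cells as well as on T cells. Its fl/fl and AD1KO levels were 4.44 and 2.20 FPKM, on about 244 and 120 reads (log2 ratio -1.01, interval -1.34 to -0.69). For both genes the AD1KO library held close to 50% of the fl/fl level, at 48.5% for Lag3 and 49.5% for Btla.

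Of the ligands, Pdcd1lg2 and Cd274 encode PD-L2 and PD-L1, the ligands of PD-1. PD-L1 is made by many cell types and PD-L2 mainly by macrophages and dendritic cells. The genes lie side by side on chromosome 19 of mm9, Cd274 (gene 60533) from 29441945 to 29462585 and Pdcd1lg2 (gene 58205) from 29485409 to 29545647, both on the plus strand with 22.8 kb between them. Cd274 was the most abundant gene of the set, with 13.5 FPKM in fl/fl (about 845 reads) and 7.11 FPKM in AD1KO (about 440 reads), a log2 ratio of -0.93 (interval -1.10 to -0.76). Pdcd1lg2 was the least abundant, with 0.80 FPKM in fl/fl (about 47 reads) and 0.07 FPKM in AD1KO (about 4 reads), a log2 ratio of -3.34 (interval -5.47 to -2.09).

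The neighbours on chromosome 19 therefore had the highest and the second lowest ratio of the set. This order depended on the pseudocount, and with 1 FPKM added in place of 0.01 FPKM the pair turned round, Pdcd1lg2 at -0.75 and Cd274 at -0.84. Taken on the estimated reads with no pseudocount, the difference in log2 ratio, Pdcd1lg2 minus Cd274, was -2.59 (interval -4.56 to -1.15). Their start regions are shown because these adjacent genes differed most among the ligands. Each window runs from 250 bases before to 50 bases after the RefSeq start and was placed on mm9 by exact match, Cd274 at chr19:29441678-29441977 and Pdcd1lg2 at chr19:29485159-29485458, both on the plus strand. Capitals mark CpG dinucleotides.
Cd274: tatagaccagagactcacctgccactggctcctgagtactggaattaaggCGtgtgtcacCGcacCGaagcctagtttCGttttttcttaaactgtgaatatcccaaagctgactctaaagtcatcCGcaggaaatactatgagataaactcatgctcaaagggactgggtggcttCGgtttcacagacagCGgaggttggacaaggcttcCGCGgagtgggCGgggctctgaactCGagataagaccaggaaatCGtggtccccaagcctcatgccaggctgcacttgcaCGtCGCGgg
Pdcd1lg2: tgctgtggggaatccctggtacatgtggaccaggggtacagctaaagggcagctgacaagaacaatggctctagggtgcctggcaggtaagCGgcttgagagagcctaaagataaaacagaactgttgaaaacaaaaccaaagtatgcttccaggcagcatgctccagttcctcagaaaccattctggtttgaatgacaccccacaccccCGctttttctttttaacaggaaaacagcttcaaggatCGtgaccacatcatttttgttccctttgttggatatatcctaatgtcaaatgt
The Cd274 window held 15 CpG sites and the Pdcd1lg2 window 3, where the median of 32851 RefSeq windows was 7. Of all windows, 65.4% held fewer CpG sites than that of Cd274 and 23.3% fewer than that of Pdcd1lg2. The windows of Havcr2 and Cd80 also held 3. The ratio of observed to expected CpG was 0.722 for Cd274 and 0.189 for Pdcd1lg2. No methylation value for either window was analysed here, and a link between CpG sites and the ratios was not tested. Dnmt1 was deleted in adipocytes, and which cells carried these transcripts was not measured.

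RefSeq windows were at hand for 8 of the 10 genes, namely Pdcd1, Cd274, Pdcd1lg2, Havcr2, Tigit, Ctla4, Btla and Cd80. Their median was 5 CpG sites, and among them only Cd274 and Ctla4 (8 sites) exceeded the median of all windows. Since many checkpoint genes are known to respond to interferon, the windows were searched on both strands for the GAS element TTCNNNGAA and for the repeat GAAANNGAA of interferon regulatory factors, and also for the TATA box TATAAA. The GAS letters were in 0 of the 8 windows and in 8.30% of all windows. The interferon regulatory factor repeat was in 3 of the 8 windows and in 8.56% of all windows. TATAAA was found for Ctla4 on the strand of the gene and for Cd80 on the opposite strand, and in 13.6% of all windows. Both matches lie after the RefSeq start, not before it. The stretches with the repeat are shown 5′ to 3′ on the strand of the gene, with the matched letters in capitals. Those of Cd274 and Ctla4 match on the opposite strand and begin 76 and 166 bases before the RefSeq start. That of Btla matches on the strand of the gene, 210 bases before the RefSeq start. The Ctla4 window was placed at chr1:60965619-60965918, which lies inside the gene span given above and not at its first base, 60943844.
Cd274: actgggtggcTTCGGTTTCacagacagcg
Ctla4: gactcgaagcTTCAGTTTCaagttgagta
Btla: cagagggcttGAAAGAGAAcagcaggtcg
The 3 genes with a match had log2 ratios of -0.93, -3.10 and -1.01, which span most of the range of the set.

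Cd86 and Cd80 encode the B7 ligands of CD28 and CTLA-4 on antigen-presenting cells. Cd86 (gene 12524, chromosome 16, 36603955 to 36666167, minus strand) had a level of 9.71 FPKM in fl/fl and 3.65 FPKM in AD1KO, on about 415 and 155 reads (log2 ratio -1.41, interval -1.68 to -1.14). Cd80 (gene 12519, chromosome 16, 38459013 to 38495821, plus strand) had levels of 1.68 and 0.73 FPKM, on about 86 and 37 reads (log2 ratio -1.19, interval -1.80 to -0.63). Cd80 was at 0.173 of the Cd86 level in fl/fl and at 0.20 in AD1KO, and the difference of their log2 ratios, Cd80 minus Cd86, was 0.21 (interval -0.46 to 0.84), so no difference between the B7 genes was detectable at this depth.

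**Figure D2:**
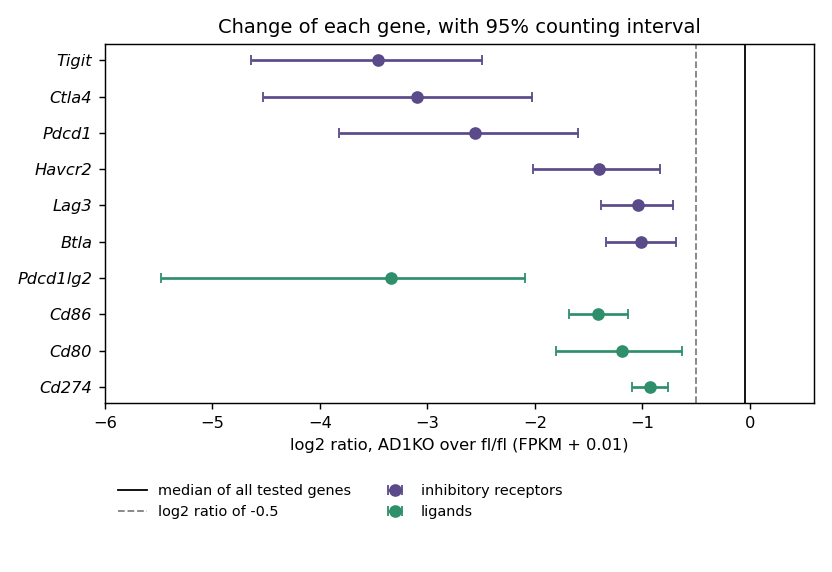
Log2 ratio of AD1KO over fl/fl for each gene (points) with the exact 95% counting interval (bars), receptors in purple and ligands in green, the median of all tested genes as a solid line and a log2 ratio of -0.5 as a dashed line. All 10 intervals end left of -0.5, and those of Tigit, Ctla4, Pdcd1 and Pdcd1lg2 reach furthest to the left and are the widest.

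The genes differed among themselves by more than counting error in many pairs. Of the 45 pairs of the 10 genes, the 95% interval of the difference in log2 ratio lay on 1 side of 0 for 24, and for 13 when the level was widened for 45 comparisons. Tigit lay 2.45 below Lag3 and 2.48 below Btla on the log2 scale, and both differences were among the 13. Cd274 and Cd86 differed by 0.48 (Cd274 minus Cd86, interval 0.16 to 0.80), which was among the 24 but not among the 13. Tigit, Ctla4, Pdcd1 and Pdcd1lg2, with ratios from -3.46 to -2.56, had between 4 and 9 reads in AD1KO and 47 to 101 in fl/fl. The other 6 genes, with ratios from -1.41 to -0.93, had 35 to 440 reads in AD1KO and 86 to 845 in fl/fl. The reads in fl/fl thus overlapped. The AD1KO reads enter the ratio, so their split follows from grouping the genes by ratio. No other gene's exons overlapped those of any of the 10 in the GENCODE annotation of mm9.

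Several of the 10 genes sit in clusters with relatives of the same function. Ctla4 lies on chromosome 1 between Cd28 and Icos, which encode the activating receptors of its family. Between the annotated gene spans, 114 kb separate it from Cd28 and 62.1 kb from Icos. Cd28 was at 1.24 FPKM in fl/fl and 0.73 FPKM in AD1KO (log2 ratio -0.76, interval -1.27 to -0.25). Icos was at 2.00 and 0.33 FPKM (log2 ratio -2.56, interval -3.42 to -1.88). Ctla4 was at 1.58 times the Cd28 level in fl/fl and at 0.301 times in AD1KO, a difference in log2 ratio of -2.39 (interval -3.86 to -1.13). Against Icos the difference was -0.56, with an interval from -2.12 to 0.88 that holds 0.

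The other B7 and CD28 relatives had ratios nearer to 0. Of the 6 genes listed, Cd28 and Icos were lower by at least 0.5 and 0 were higher. Vsir, which encodes the inhibitory receptor VISTA of myeloid cells, was the most abundant at 54.0 and 39.9 FPKM (log2 ratio -0.43, interval -0.50 to -0.37). Cd276, which encodes B7-H3, had a log2 ratio of -0.41 (interval -0.77 to -0.06). Icosl, the ligand of ICOS, had 5.49 and 5.42 FPKM (log2 ratio -0.02, interval -0.28 to 0.24), and Vtcn1 was at 0.70 and 0.80 FPKM (log2 ratio 0.19, interval -0.55 to 0.93).

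The genes for binding partners of the 10 had ratios on both sides of 0. Of 12 partner genes, 5 were lower by at least 0.5 and 0 were higher, with a median log2 ratio of -0.28. The MHC class II genes H2-Aa, H2-Ab1 and H2-Eb1, which encode the ligand of LAG-3, had log2 ratios of -1.66, -1.65 and -1.61. Rgmb, which encodes a partner of PD-L2, was at 3.72 and 2.33 FPKM (log2 ratio -0.67, interval -1.04 to -0.30). Tnfrsf14, which encodes HVEM, the partner of BTLA, was at 13.02 FPKM in fl/fl and 4.60 FPKM in AD1KO (log2 ratio -1.50, interval -1.68 to -1.33). Btla minus Tnfrsf14 was 0.49 (interval 0.12 to 0.86), so the level of the receptor relative to its partner was higher in AD1KO.

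The ligands of TIGIT gave another picture. Pvr, which encodes the poliovirus receptor, was at 11.3 FPKM in fl/fl and 12.8 FPKM in AD1KO (log2 ratio 0.17, interval 0.01 to 0.34). Nectin2 was at 8.81 and 9.88 FPKM (log2 ratio 0.17, interval -0.05 to 0.38) and Nectin3 at 4.85 and 5.93 FPKM (log2 ratio 0.29, interval 0.04 to 0.55). Tigit was at 0.358 of the Pvr level in fl/fl and 0.0282 in AD1KO, a difference in log2 ratio of -3.67 (interval -4.83 to -2.65). Lgals9, which encodes galectin-9, a ligand of TIM-3, was at 68.0 and 51.9 FPKM (log2 ratio -0.39, interval -0.50 to -0.28), and Fgl1, a ligand of LAG-3 in other settings, was at 2.11 and 2.73 FPKM (log2 ratio 0.37, interval -0.26 to 1.03).

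All 7 genes for proteins that share a partner with the product of 1 of the 10 genes were lower by at least 0.5, with a median of -1.70. The activating receptor gene Cd226 was at 0.87 FPKM in fl/fl and 0.13 FPKM in AD1KO, about 36 and 5 reads (log2 ratio -2.65, interval -4.54 to -1.48). The difference between Tigit and Cd226 was -0.75 (interval -2.48 to 1.39), so the balance of these competing receptors could not be told to differ at this depth. Cd96, the third receptor of the poliovirus receptor group, was at 1.35 and 0.41 FPKM (log2 ratio -1.70, interval -2.66 to -0.87), and Tigit minus Cd96 was -1.77 (interval -3.22 to -0.34). Cd160, the other receptor for HVEM and a gene of NK and CD8 T cells, was at 1.08 and 0.17 FPKM (log2 ratio -2.60, interval -4.06 to -1.51). Cd4, which neighbours Lag3 at 16.1 kb on chromosome 6, was at 5.06 and 1.78 FPKM (log2 ratio -1.50, interval -1.86 to -1.16), and Lag3 minus Cd4 was 0.46 (interval -0.04 to 0.94). Havcr1, on only about 11 and 2 reads, had a log2 ratio of -2.36 (interval -5.66 to -0.25). Timd4 and Tnfsf14 were at -0.65 (interval -1.22 to -0.10) and -0.97 (interval -1.795 to -0.217).

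Of 10 genes for costimulatory receptors and ligands of the TNF families, 9 were tested. Of these 9 were lower by at least 0.5 and 0 were higher, with a median of -1.10, but for 4 of the 9, namely Cd40lg, Tnfsf9, Cd70 and Tnfsf18, the interval held 0. The gene not tested, Tnfsf4, had about 1 read in each library. Cd40, which licenses antigen-presenting cells, was the most abundant, at 10.6 FPKM in fl/fl and 2.81 FPKM in AD1KO (log2 ratio -1.90, interval -2.30 to -1.55). Tnfrsf4, which encodes OX40, was at 6.09 and 1.65 FPKM (log2 ratio -1.88, interval -2.52 to -1.29). Tnfsf9 and Cd40lg, the highest ratios among genes with at least 10 reads, were at -0.87 and -0.57. The 9 include Cd70, for which fl/fl had about 2 reads and the AD1KO value is 0, so no fold is given for it.

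Other inhibitory receptors and their ligands were mostly lower too, with 11 of 12 lower by at least 0.5, 0 higher and a median of -1.13. Cd72 and Lair1 had the lowest ratios, at -2.10 (interval -2.28 to -1.92) and -1.94 (interval -2.15 to -1.75). Sirpa, a macrophage receptor, was the most abundant, at 120 FPKM in fl/fl and 53.6 FPKM in AD1KO, and its broadly expressed ligand Cd47 was at 51.4 and 33.1 FPKM (log2 ratio -0.64). Cd200, a ligand of stromal and endothelial cells, was the only gene of the list with an interval above 0, at 16.2 and 20.6 FPKM (log2 ratio 0.35, interval 0.16 to 0.53). Of 12 genes for signalling below the checkpoints and for T cell transcription factors, 10 were lower by at least 0.5 and 0 higher, with a median of -1.39. Ptpn6 and Ptpn11 encode the phosphatases SHP-1 and SHP-2 that inhibitory receptors recruit. Ptpn6, a gene of blood cells, was at 59.5 and 20.2 FPKM (log2 ratio -1.56, interval -1.68 to -1.44), and the broadly expressed Ptpn11 was at 20.8 and 21.7 FPKM (log2 ratio 0.06, interval -0.03 to 0.15). Sh2d1a and Zap70, which act in T cell signalling, were lowest at -2.04 and -1.74, and Nr4a1 was at -0.38 (interval -0.70 to -0.06).

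**Figure D3:**
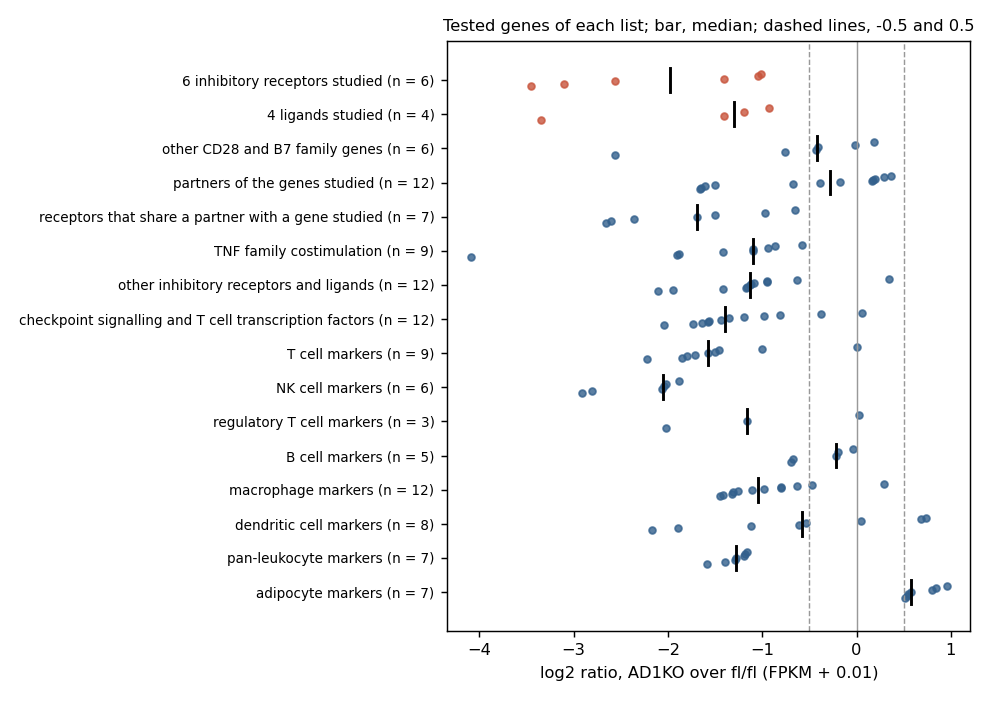
Log2 ratio of AD1KO over fl/fl for the tested genes of each list (points; the number tested stands beside the name) with the list median (bar) and dashed lines at -0.5 and 0.5. The 10 genes studied (red) lie left of -0.5, the partners spread from -1.66 to 0.37, and the leftmost point of the TNF family list is Cd70, which is listed at 0 in AD1KO.

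Most markers of T cells, NK cells and macrophages were also lower in AD1KO, while those of B cells and dendritic cells were less uniform. Of 9 T cell markers, 8 were lower by at least 0.5, with Cd5 and Cd3g lowest at -2.22 and -1.85, and their summed FPKM was 92.5 in fl/fl and 32.2 in AD1KO. The remaining marker, Trat1, had about 3 reads in each library. All 6 NK cell markers were lower, with a median of -2.05 and summed FPKM of 52.5 and 12.9. Of 12 macrophage markers, 10 were lower, with C1qb lowest at -1.45 and Cd163 as the only one above 0, at 0.30 (interval 0.16 to 0.43), and the summed FPKM was 7155 and 3123. Among 3 regulatory T cell markers, Foxp3 and Ikzf2 had ratios of -2.02 and -1.16 while Il2ra was at 1.28 and 1.30 FPKM. B cell markers had the median nearest to 0 of these lists, -0.22. All 5 lay below 0, 2 of them by at least 0.5, and Ms4a1 was nearest to 0 at -0.03 (interval -0.34 to 0.28). Their summed FPKM was 89.2 in fl/fl and 59.8 in AD1KO, and their summed reads had a log2 ratio of -0.50 (interval -0.59 to -0.40). Of 8 dendritic cell markers 5 were lower, among them Clec9a at -2.17 and Xcr1 at -1.89, and Itgae and Cd209a were higher, at 0.74 (interval -0.10 to 1.67) and 0.68 (interval 0.18 to 1.20). No marker in these 6 lists was at 0 in either library. The part of cell numbers in the lower checkpoint levels was not tested.

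Set against the summed T cell marker reads, the inhibitory receptors went different ways. The log2 ratio of the T cell sum was -1.56 (interval -1.68 to -1.43). Tigit lay below it by a further -1.94 (interval -3.10 to -0.93), Ctla4 by -1.60 (interval -2.98 to -0.46) and Pdcd1 by -1.05 (interval -2.28 to -0.03). Per 1000 T cell marker reads, Tigit had 48.8 reads in fl/fl and 12.8 in AD1KO. Lag3 and Btla lay above the T cell sum, by 0.51 (interval 0.14 to 0.86) and 0.54 (interval 0.19 to 0.89), and Lag3 had 112 reads per 1000 marker reads in fl/fl and 160 in AD1KO. Havcr2 was at 0.14 (interval -0.47 to 0.73). Against the single T cell marker Cd3e, the intervals of Tigit and Ctla4 stayed below 0 and that of Btla just above 0. Those of Lag3 (0.53, interval -0.05 to 1.10) and Pdcd1 (-1.02, interval -2.34 to 0.09) then held 0, as did that of Havcr2.

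The choice of marker list mattered for these differences. Against the NK cell sum, whose log2 ratio was -2.08, Tigit remained lower, by -1.41 (interval -2.59 to -0.38), while the intervals of Ctla4, Pdcd1 and Pdcd1lg2 held 0. The other 6 genes lay above the NK cell sum with their whole interval, from 0.67 for Havcr2 and Cd86 to 1.15 for Cd274. Against the regulatory T cell sum, Ctla4 was at -2.35 (interval -3.75 to -1.18), but against Foxp3 alone it was at -1.10 (interval -2.67 to 0.33). Against the B cell sum, whose log2 ratio was -0.50, all 10 genes lay below 0, Btla by -0.52 (interval -0.85 to -0.18).

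The ligands were set against the macrophage marker reads, whose sum had a log2 ratio of -1.15 (interval -1.17 to -1.14). Cd80 and Cd86 lay at -0.05 (interval -0.65 to 0.52) and -0.26 (interval -0.53 to 0.02), and both intervals held 0. Cd274 lay above the macrophage sum, by 0.22 (interval 0.05 to 0.39), and Pdcd1lg2 below it, by -2.36 (interval -4.32 to -0.94). Abundant markers weigh most in this sum, with Lyz2 and C1qb at about 38885 and 28778 of 140750 reads in fl/fl. Against the median log2 ratio of the macrophage markers, Cd274 was at 0.11 and Pdcd1lg2 at -2.30, with no interval computed. Havcr2 lay at -0.26 (interval -0.86 to 0.31). Against the macrophage sum 4 of the 10 genes lay below 0 with their whole interval, 5 held 0 and 1 lay above, and the pan-leukocyte sum, an alternative added after the data were seen, gave the same counts.

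**Figure D4:**
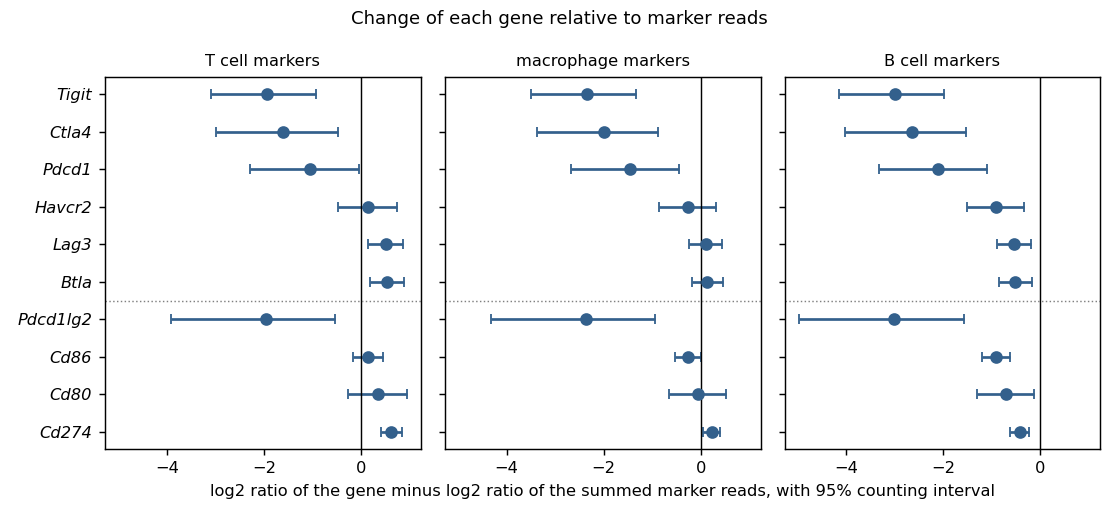
Log2 ratio of each gene minus the log2 ratio of the summed reads of T cell, macrophage or B cell markers (points) with the exact 95% counting interval (bars), receptors above the dotted line and ligands below it. Tigit, Ctla4, Pdcd1 and Pdcd1lg2 lie left of 0 in all 3 panels, Lag3 and Btla lie right of 0 for T cell markers, and all 10 genes lie left of 0 for B cell markers.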

How the data were processed

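Gene expression in gWAT was measured by RNA-seq in 1 fl/fl and 1 AD1KO library, each from RNA of 4 animals. According to the methods and labels, RNA was sequenced by BGI and clean reads were aligned to mm9. The aligner and the quantification program are not given in the sources used here. The deposited values are FPKM with 2 decimals, in which 0 is written as 0.01. The deposited table also holds the authors' fold changes, P-values and FDR, which were not used. The 2 RRBS samples were not analysed here.

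Values of 0.01 were set to 0, and log2 ratios were taken after adding 0.01 FPKM, which understates changes of low genes. A gene was kept where either library reached 0.1 FPKM, and the threshold was 0.5 on the log2 scale, higher or lower. Reads were estimated from the FPKM steps of low values, which were nearest to whole reads at the depths given and a length correction of 116 bases. Of 910 low values in fl/fl and 924 in AD1KO, 79.0% and 77.9% were whole within rounding plus 0.05 reads. The estimated reads sum to 17793354 and 17591616. Intervals are exact Clopper-Pearson intervals, or exact conditional intervals of an odds ratio for differences between genes, at 95%. With 1 library per group, the intervals cover counting error only. Reads carry no molecular identifiers, so amplified copies count as separate reads and the intervals may be too narrow. The steps were tested on simulated data.

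The genes and lists were chosen with earlier results of these data known. Named genes were drawn from the 10 genes, Dnmt1, Esr1 and, of each list, all genes where it has 7 or fewer, otherwise the 2 highest and 2 lowest ratios among genes with at least 10 reads and the most abundant gene. Further partners, Cd70, Tnfsf4, Tnfsf18, Trat1, Adipoq and the pairs set side by side were chosen after their values were seen. With 2 libraries no likeness of pattern was computed. The value of 1 B cell marker is not reported here. Protein features were not run, as no protein table was at hand. Endothelial (median 0.39), stromal (0.20) and mesothelial (0.79) markers were higher in the median, lymphoid follicle markers were at -0.68, and Esr1 was at 0.81. Gene positions are from GENCODE M1 on mm9, and start windows from RefSeq (GRCm38.p6). The tools were Matplotlib 3.10.9, pandas 2.3.3, SciPy 1.17.1 and NumPy 2.4.6 under Python 3.11.15.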

Additional observations from a re-analysis of the deposited data

How the results depend on the processing

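No paired analysis was possible because each group is a single pool. Over 9 alternatives, the 10 genes gave 89 log2 ratios, of which 89 were at or below -0.5. Pdcd1lg2 fails the minimum of 1 FPKM. The alternatives that change only the filter leave each ratio as it was, so their values repeat the main ones. The 89 values are therefore not 89 separate checks. A pseudocount of 1 FPKM, large against most of these genes, moved the median of the 10 from -1.41 to -0.86, that of the receptors from -1.98 to -0.98 and that of the ligands from -1.30 to -0.80. It also moved Tigit to -1.89, Ctla4 to -1.28, Pdcd1 to -1.08, Havcr2 to -0.79 and Pdcd1lg2 to -0.75, which then lay above Cd274 at -0.84. Scaling by trimmed mean of M-values, median of ratios or upper quartile raised log2 ratios by 0.05, 0.04 and 0.09. The median of the receptors relative to T cell markers, -0.45, became 0.075 with NK cell markers, whose own ratio is lower.

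Over all tested genes, 3029 were lower and 2265 higher. These counts were 1661 and 965 with a pseudocount of 1 FPKM, 1417 and 910 at a log2 ratio of 1, and 4601 and 3412 by whole counting intervals past 0. With upper quartile scaling they were 2609 and 2796, so that higher genes outnumbered lower ones. The higher genes numbered 1281 at a minimum of 1 FPKM, where fewer genes are tested. Depth limits Tigit, Ctla4, Pdcd1 and Pdcd1lg2 most, with 9, 7, 9 and 4 reads in AD1KO.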
